A study of Danio rerio with 6 samples.

Results

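Potassium channel genes were taken as the zebrafish gene symbols that begin with kcn, more letters and a digit, with the transcript that held the most reads standing for each gene. Of 113 such symbols in the deposited table, 12 had at least 10 reads in at least 2 of the 6 libraries. These 12 genes held 87.3% of all reads on kcn symbols. They are the tandem-pore channel genes kcnk5b, kcnk6 and kcnk3b, the voltage-gated pore genes kcnd1, kcnd3, kcna4, kcnb2, kcng2 and kcnq5b, the auxiliary subunit genes kcnip3a and kcne4, and the calcium-activated channel gene kcnn4.

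Potassium channels let potassium leave or enter the cell and thereby set its resting membrane potential. Tandem-pore channels conduct as a leak, voltage-gated channels open when the membrane depolarises, and inward rectifiers pass current mainly near rest. In zebrafish these channels are known for fin size: activating mutations of kcnk5b and misexpression of kcnh2a give overgrown fins, kcnj13 has been tied to fin and pigment pattern, and inhibition of the phosphatase calcineurin lengthens regenerating fins.

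The cells were sorted by fluorescence from adult caudal fins at 14 days post amputation, with 2 libraries each labelled osteoblasts, osteogenic mesenchymal progenitors (OMP) and chondrogenic mesenchymal progenitors (CMP). All fish carried cryaa:EGFP, a lens marker, together with sox9a:Cre-ERt2, which drives a tamoxifen-dependent recombinase from sox9a. They also carried the switch reporter Ola.Actb:loxp-TagBFP-loxp-EGFP and the osteoblast reporter Ola.Sp7:mCherry, on a strain derived from Tubingen. The titles give osteoblasts as EGFP-negative and sp7-positive, OMP as positive for both, and CMP as EGFP-positive and sp7-negative, while the design text calls the mesenchymal cells sp7-negative. The lineage label is limited to descendants of cells in which sox9a drove the recombinase. No source used here says how many fish were pooled or whether the 2 libraries of a group came from separate fish, and the spread that enters the p-values may therefore be technical.

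The libraries held 3915569 to 5281898 reads after 1 transcript per gene was kept. Levels are given as CPM, the read counts of a gene scaled to a common library size by TMM, the trimmed mean of M values, and 3 reads in a library correspond to 0.478 to 0.982 CPM. Endogenous sp7 stood at 161 and 175 CPM in osteoblasts, 10.4 and 8.45 CPM in OMP and 1.99 and 2.18 CPM in CMP. Endogenous sox9a stood at 12.1 and 7.79 CPM in osteoblasts, 10.9 and 7.17 CPM in OMP and 54.1 and 38.1 CPM in CMP. Both CMP libraries were above those of osteoblasts and OMP, which overlapped. The mCherry transcript had 2455 and 8136 reads in osteoblasts, 6 and 62 in OMP and 3 and 47 in CMP, so the libraries labelled OMP go against an sp7-positive sort. EGFP lay between 796 and 1115 CPM in all 6 libraries, which goes against an EGFP-negative sort of the libraries labelled osteoblast. Every short library name chosen by the submitters holds the letter G, while the letter R appears only for osteoblasts. If G is read as EGFP and R as mCherry, which is an assumption, these names go with the reporter reads. Read that way, they differ from the titles for OMP and osteoblasts. The 12 osteoblast markers summed to 202574 and 260654 CPM in osteoblasts, 5573 and 4294 CPM in OMP and 991 and 910 CPM in CMP, and the 12 mesenchyme and cartilage markers to between 1113 and 1168, 1497 and 1962, and 6902 and 8341 CPM in the same order. Not every gene followed the sum of its list. The osteoblast marker alpl stood at 42.9 and 30.0 CPM in osteoblasts against 161 and 97.4 CPM in OMP. Of the mesenchyme and cartilage markers, prrx1a and twist2 had their highest means in OMP, and dlx5a averaged 220, 67.1 and 229 CPM in osteoblasts, OMP and CMP. In CMP the cartilage genes col2a1a and acana had 0 and 0 reads and 6 and 0 reads. The group names are used as the labels give them.

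Kcnk5b was the most abundant potassium channel transcript in every library, while kcnd1, kcna4 and kcnip3a were highest in OMP and kcnd3 and kcnk3b were read almost only in osteoblasts. Together the 12 genes summed to 186 and 169 CPM in osteoblasts, 213 and 142 CPM in OMP and 135 and 90.0 CPM in CMP. Calls come from edgeR's quasi-likelihood test over 13399 genes at a Benjamini-Hochberg adjusted p under 0.05. The test covered 11 of the 12 genes, since kcng2 did not pass its filter on low counts. In osteoblasts against OMP, kcnd3 was called higher and kcnd1 and kcna4 lower. Of all genes tested, 7.34% were called in this comparison, 2.72% higher and 4.61% lower. In osteoblasts against CMP, kcnk3b was called higher and kcnd1 lower. There, 9.55% of all genes were called, 3.91% higher and 5.64% lower. In OMP against CMP, kcnip3a was called higher. There, 1.41% of all genes were called, 0.791% higher. At an unadjusted p under 0.05 the test gave 5, 4 and 3 of the 11 genes in these comparisons. The share of all genes at that unadjusted p was not counted, so no excess can be read from such counts, here or in the lists below. The gene rule counts reads in any library, so a gene read in a single group could enter only by differing, and these counts describe the genes and support no claim about the family. Kcnip3a and kcng2 reached 10 reads in OMP alone, and kcnd3 and kcnk3b in osteoblasts alone. Their place among the 12 genes thus already depended on a high level in that group.

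**Figure D1:**
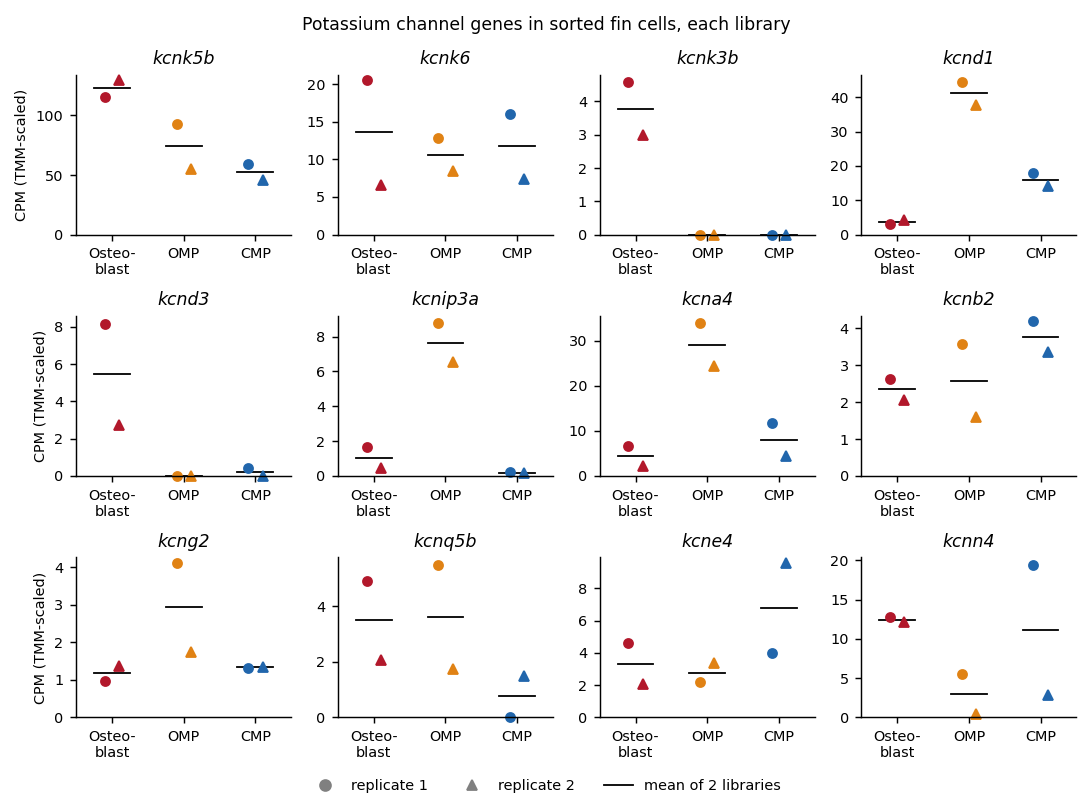
TMM-scaled CPM (linear axes from 0) of the 12 potassium channel genes in each library, with osteoblasts, OMP and CMP from left to right, a circle for replicate 1, a triangle for replicate 2 and a bar for the mean. The kcnk5b points of osteoblasts (115 and 130 CPM) lie above those of OMP and CMP, kcnd1, kcna4 and kcnip3a are highest in OMP, and kcnk3b is at 0 reads outside osteoblasts.

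Kcnk5b encodes a tandem-pore leak channel of the alkaline-activated TASK type. Its level was 115 and 130 CPM in osteoblasts, 92.5 and 55.5 CPM in OMP and 59.6 and 45.5 CPM in CMP. Both osteoblast libraries exceeded the other 4, and the OMP and CMP libraries overlapped. The means were 123 ± 10.6 CPM in osteoblasts, 74.0 ± 26.2 CPM in OMP and 52.57 ± 9.98 CPM in CMP (SD, n = 2 each). Against CMP the log2 fold change in osteoblasts was 1.22 (SE 0.35), with an edgeR adjusted p of 0.0616, which missed the threshold. That p fell below the threshold without OMP replicate 1 (edgeR adjusted p = 0.0485) or OMP replicate 2 (0.0495). Under edgeR's bias-adjusted method it was 0.0494 and under DESeq2 0.0302, and over all alternatives it ran from 0.00698 to 0.355. Against CMP, kcnk5b was called higher in osteoblasts under 7 of the 14 alternatives, none of which left out an osteoblast or CMP library. The log2 fold change was 0.73 (SE 0.34, edgeR adjusted p = 0.336) in osteoblasts against OMP and 0.49 (SE 0.35, edgeR adjusted p = 0.855) in OMP against CMP, and neither was called.

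Between genes, levels were compared per kilobase of the transcript kept. On that scale kcnk5b averaged 48.8 CPM per kilobase in osteoblasts, 29.4 in OMP and 20.9 in CMP, the highest of the 12 genes in each group. Its reads made up 53.5% and 68.0% of all kcn reads in osteoblasts, 38.8% and 35.0% in OMP and 39.0% and 40.5% in CMP. The next highest mean level over all libraries was that of kcne4, at 7.69 CPM per kilobase, followed by kcnd1 at 4.76, kcna4 at 2.69, kcnn4 at 2.58 and kcnk6 at 2.44. The other 6 genes averaged between 0.273 (kcnd3) and 0.929 CPM per kilobase (kcnip3a). The close paralog kcnk5a had between 1 and 6 reads in every library.

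**Figure D2:**
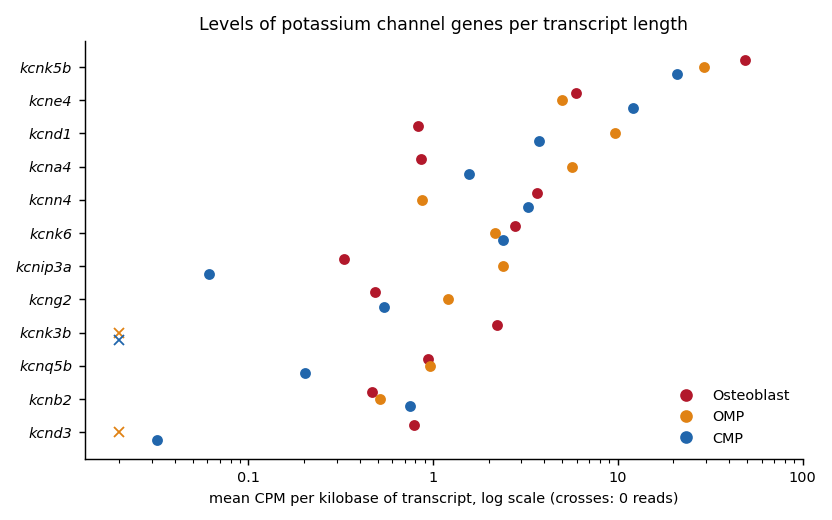
Mean CPM per kilobase of transcript (log axis) of the 12 genes in osteoblasts, OMP and CMP (n = 2 libraries each), ordered by the mean over all 6 libraries, with crosses for 0 reads. Kcnk5b is highest in each group (48.8, 29.4 and 20.9), while kcnd1 is at 0.832 in osteoblasts, 9.69 in OMP and 3.76 in CMP.

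Of the other tandem-pore genes, kcnk6 was read in every library and kcnk3b in osteoblasts. Kcnk6 encodes a weakly inward-rectifying member of the family. It stood at 20.6 and 6.65 CPM in osteoblasts, 12.9 and 8.45 CPM in OMP and 16.1 and 7.36 CPM in CMP. All 3 groups overlapped, and the spread within a group exceeded the differences between group means (13.6, 10.7 and 11.7 CPM). Its log2 fold changes were 0.35 (SE 0.63) in osteoblasts against OMP, 0.21 (SE 0.63) in osteoblasts against CMP and -0.14 (SE 0.62) in OMP against CMP.

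Kcnk3b encodes an acid-sensitive TASK leak channel. It had 14 and 13 reads in osteoblasts and 0 reads in both libraries of OMP and of CMP. Set against 3 reads over the group, osteoblasts were 12.04-fold higher than OMP and 12.7-fold higher than CMP. These ratios leave out the counting error of the osteoblast reads. The call was made against CMP (edgeR adjusted p = 0.0440) and missed against OMP (edgeR adjusted p = 0.0571), although OMP and CMP both had 0 reads. The call against CMP was lost with counts summed over transcripts (adjusted p = 0.101) and without OMP replicate 1 (0.0537), OMP replicate 2 (0.0571), CMP replicate 1 (0.193) or CMP replicate 2 (0.252). Kcnk3b has 1 transcript row, so summing left its own reads unchanged and changed only the rest of the fit. Without either osteoblast library the gene did not pass the filter on low counts. Counting error alone is large at 27 reads. Reads carry no molecular identifiers, the intervals given here cover counting error only, and the floors cover only that of the group set at 3 reads. The full uncertainty may therefore be larger.

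The Shal-type genes kcnd1 and kcnd3, which encode pores of fast-inactivating A-type currents, had opposite profiles. Kcnd1 stood at 2.94 and 4.12 CPM in osteoblasts, 44.6 and 37.8 CPM in OMP and 17.9 and 14.1 CPM in CMP. No library of a group overlapped with another group, and the order was OMP, CMP and osteoblasts from high to low. It fell in osteoblasts against OMP (log2 fold change -3.51, SE 0.43, edgeR adjusted p = 0.00136), a call that held under all 14 alternatives, with adjusted p between 6.96e-09 and 0.00823. It also fell in osteoblasts against CMP (-2.15, SE 0.42, edgeR adjusted p = 0.0119), a call lost without osteoblast replicate 1 (0.0762) or CMP replicate 1 (0.0701). Between OMP and CMP the log2 fold change was 1.37 (SE 0.38, edgeR adjusted p = 0.159), which was not called.

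Kcnd3 had 25 and 12 reads in osteoblasts, 0 and 0 in OMP and 2 and 0 in CMP. Both osteoblast libraries were above the other 4. Against 3 reads over the group, osteoblasts were 16.5-fold higher than OMP, with the counting error of the osteoblast reads left out. Kcnd3 was called higher there, at the edge of the threshold (edgeR adjusted p = 0.0488). Against CMP the ratio of depth-scaled reads was 26.2, with a 95% counting interval of 6.76 to 224, and edgeR made no call (adjusted p = 0.0888). The call against OMP was lost with DESeq2's size factors (adjusted p = 0.0504), with counts summed over transcripts (0.0569) and without osteoblast replicate 2 (0.0873), OMP replicate 1 (0.129) or OMP replicate 2 (0.207). Without osteoblast replicate 1, or with heat shock genes removed, kcnd3 was not tested.

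Kcnip3a encodes a calcium-binding Kv channel interacting protein, a class that in mammals binds Shal pores and alters their gating. Like kcnd1 it was highest in OMP, with 32 and 41 reads, against 5 and 2 reads in osteoblasts and 1 read in each CMP library. It met the gene rule through its OMP reads alone, so its entry already depended on a high level there. Against CMP the ratio of depth-scaled reads in OMP was 38.6, with a 95% counting interval of 10.3 to 325, and the gene was called higher (edgeR adjusted p = 0.0471). That call was lost without OMP replicate 1 (adjusted p = 0.201), OMP replicate 2 (0.150), CMP replicate 1 (0.237) or CMP replicate 2 (0.313). In osteoblasts against OMP the log2 fold change was -2.90 (SE 0.87), with an edgeR adjusted p of 0.0877 and of 0.0245 under the bias-adjusted method. In osteoblasts against CMP the ratio was 4.95, with a 95% counting interval of 0.943 to 48.9.

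Kcna4, a Shaker-type gene whose channel also inactivates fast, was likewise highest in OMP. It stood at 6.54 and 2.29 CPM in osteoblasts, 33.9 and 24.4 CPM in OMP and 11.7 and 4.35 CPM in CMP. The OMP libraries were above all others, and those of osteoblasts and CMP overlapped. It fell in osteoblasts against OMP (log2 fold change -2.75, SE 0.65, edgeR adjusted p = 0.0345), a call lost without osteoblast replicate 2 (0.175) or OMP replicate 1 (0.115) and with counts summed over transcripts (0.0619). The log2 fold change was -0.88 (SE 0.65, edgeR adjusted p = 0.560) in osteoblasts against CMP and 1.87 (SE 0.61, edgeR adjusted p = 0.259) in OMP against CMP, and neither was called.

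Beside the peak of kcnd1, kcna4 and kcnip3a in OMP, the summed level of 12 pigment cell markers was between 7.79 and 22.2 CPM in osteoblasts, between 30.0 and 34.5 CPM in OMP and between 12.4 and 15.5 CPM in CMP. Most of the OMP sum was ltk, a receptor tyrosine kinase of iridophores, at 17.5 and 25.02 CPM, while tyr and xdh were at 0 reads in all libraries. The other genes of the list did not share 1 order. Pnp4a had 1 and 9 reads in osteoblasts, 0 and 0 in OMP and 2 and 5 in CMP. Gch2 had 43 and 10, 6 and 2, and 4 and 4 reads in the same order. Tyrp1b and pmela had their highest means in OMP. Of the 12 pigment markers 2 were tested, and ltk was called lower in osteoblasts than in OMP (edgeR adjusted p = 0.00607), beside 4.61% of all genes. It was not called in osteoblasts against CMP (edgeR adjusted p = 0.0652) or in OMP against CMP (edgeR adjusted p = 0.271). The 12 nerve and glia markers summed to between 45.8 and 63.5 CPM in osteoblasts, between 31.2 and 64.1 CPM in OMP and between 31.6 and 47.5 CPM in CMP, with elavl3 and snap25a at 0 reads. Elavl4, another neuronal gene of that list, was highest in OMP, with 9 and 3 reads in osteoblasts, 33 and 13 in OMP and 6 and 0 in CMP, and was called in none of the comparisons. Of the 5 genes of the list that were tested, elavl4 alone had its highest mean in OMP. Mbpa had 4 and 23 reads in osteoblasts, 0 and 0 in OMP and 3 and 33 in CMP. Plp1b had 3 and 0, 3 and 3, and 28 and 31 reads in the same order, and gfap averaged 4.21, 17.6 and 23.1 CPM. The synaptic vesicle gene syt1a stood at 55.9 and 32.3 CPM in osteoblasts, 10.7 and 33.8 CPM in OMP and 5.08 and 5.35 CPM in CMP, and was called higher in osteoblasts against CMP (edgeR adjusted p = 0.0104) and not against OMP (edgeR adjusted p = 0.446). The part of these cells in the levels of the channel genes was not tested, and in sorted pools fewer cells of a type cannot be told apart from less RNA per cell.

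The remaining voltage-gated genes were low, with kcnb2 and kcnq5b not called and kcng2 not tested. Kcnb2, of the delayed-rectifier Shab type, had 8 and 9 reads in osteoblasts, 13 and 10 in OMP and 19 and 20 in CMP. Kcng2, an electrically silent subunit that modifies Shab pores, had 3 and 6 reads in osteoblasts, 15 and 11 in OMP and 6 and 8 in CMP. Kcnq5b, of the family that carries the M-current in neurons, had 15 and 9 reads in osteoblasts, 20 and 11 in OMP and 0 and 9 in CMP. Osteoblasts and OMP overlapped in kcnb2 and kcnq5b. The log2 fold change of kcnb2 was -0.69 (SE 0.77) and that of kcnq5b 2.07 (SE 1.24) in osteoblasts against CMP. The edgeR adjusted p of these 2 genes lay between 0.439 and 1 over the 3 comparisons.

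**Figure D3:**
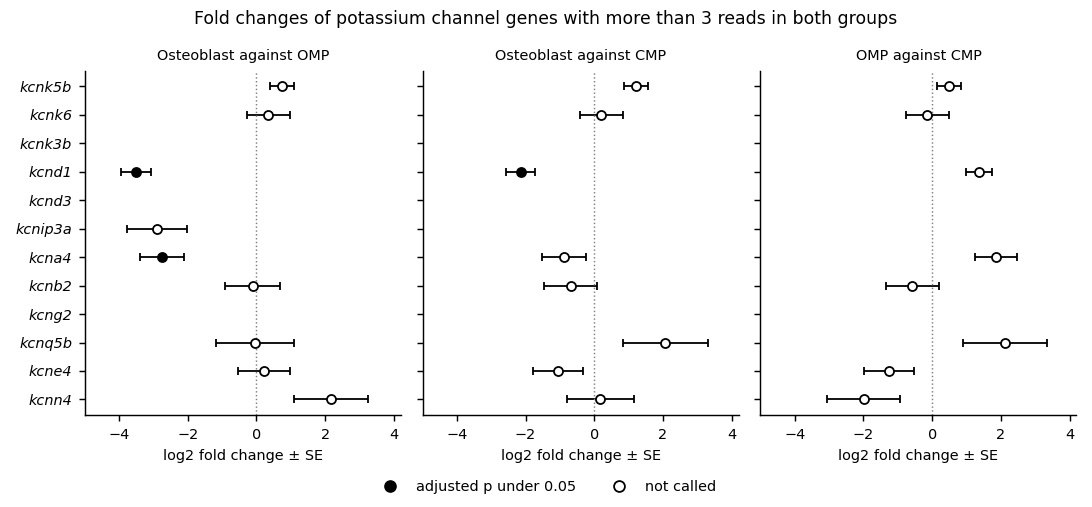
Log2 fold change ± SE from edgeR for genes that were tested and had more than 3 reads in both groups, in osteoblasts against OMP, osteoblasts against CMP and OMP against CMP, with filled points for an adjusted p under 0.05. Kcnd1 is filled in both osteoblast panels (-3.51 and -2.15) and kcna4 in the first (-2.75), and kcnk5b lies right of 0 in all 3 (0.73, 1.22 and 0.49).

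Kcne4 encodes a single-pass auxiliary subunit that in mammals inhibits some voltage-gated pores. It had 14 and 9 reads in osteoblasts, 8 and 21 in OMP and 18 and 57 in CMP. The OMP libraries lay below those of CMP in CPM, and osteoblasts overlapped with both. Its log2 fold change was -1.05 (SE 0.74, edgeR adjusted p = 0.532) in osteoblasts against CMP and -1.27 (SE 0.73, edgeR adjusted p = 0.727) in OMP against CMP. Its transcript is the shortest of the 12, at 557 bases, which places it second per kilobase on 127 reads in all.

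Kcnn4 encodes the intermediate-conductance channel opened by calcium through calmodulin. It stood at 12.8 and 12.1 CPM in osteoblasts, 5.47 and 0.478 CPM in OMP and 19.4 and 2.84 CPM in CMP. Osteoblasts were above OMP, and the CMP libraries, which stood far apart, overlapped with both. The log2 fold change was 2.16 (SE 1.07, edgeR adjusted p = 0.369) in osteoblasts against OMP, 0.17 (SE 0.97, adjusted p = 0.960) in osteoblasts against CMP and -1.99 (SE 1.06, adjusted p = 0.683) in OMP against CMP. None was called.

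The other channels of fin size and pigment pattern were at or near the limit of these libraries. Kcnh2a, whose misexpression overgrows the fin in the longfin mutant, and the inward rectifier gene kcnj10a had 0 reads in all 6 libraries. Kcnj13 had 4 and 1 reads in osteoblasts, 0 and 9 in OMP and 9 and 4 in CMP. Kcnma1a, the large-conductance calcium-activated channel, had 22 and 0 reads in osteoblasts, 5 and 8 in OMP and 4 and 0 in CMP, so its osteoblast reads came from replicate 1. None of these genes passed the filter on low counts, so a difference in them was not tested in the main fit. Without that filter, the lowest edgeR adjusted p of kcnj13 and kcnma1a was 0.168, for kcnma1a in osteoblasts against CMP.

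Kcnj8 encodes the pore of the ATP-sensitive channel that pairs with the sulfonylurea receptor of abcc9, known from mural cells of vessels. It had 0 and 0 reads in osteoblasts, 3 and 8 in OMP and 4 and 20 in CMP. Against 3 reads over the group, osteoblasts were 5.65-fold lower than CMP and 2.74-fold lower than OMP, with the counting error of the CMP and OMP reads left out. Without the filter on low counts edgeR gave an adjusted p of 0.0513 against CMP and 0.204 against OMP. Its partner abcc9 was lower in osteoblasts than in CMP (0.458 ± 0.648 CPM against 12.3 ± 6.21 CPM, SD, n = 2 each, log2 fold change -4.51, SE 1.04, edgeR adjusted p = 0.0251). The abcc9 call was lost without osteoblast replicate 1 (0.0687) or CMP replicate 2 (0.145) and with counts summed over transcripts (0.0644).

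Of 12 mural cell markers, 10 were tested and 6 fell in osteoblasts against CMP, beside 5.64% of all genes. Another 4 were not called, among them cspg4 and pdgfrb, and cnn1b, which averaged 27.8 CPM in osteoblasts and 13.6 CPM in CMP. Acta2, tagln, rgs5a and rgs5b fell in osteoblasts against both OMP and CMP, beside 4.61% and 5.64% of all genes. Acta2, the smooth muscle actin gene, also fell in OMP against CMP, near the threshold (edgeR adjusted p = 0.0450). There, 0.619% of all genes were called lower. All 12 mural markers summed to between 137 and 254 CPM in osteoblasts, between 477 and 555 CPM in OMP and between 786 and 878 CPM in CMP. This moved with kcnj8 and abcc9, and its part in them was not tested. The summed level of epidermal markers had the same order, with 12 genes summing to between 1744 and 2366 CPM in osteoblasts, between 5621 and 6005 CPM in OMP and between 9796 and 10564 CPM in CMP, most of it krt4 and krt91. Krt4, krt91 and ppl fell in osteoblasts against OMP and krt4, krt91 and krt15 in osteoblasts against CMP, beside 4.61% and 5.64% of all genes. Against OMP the edgeR adjusted p was 0.00413 for krt4, and nearer the threshold for krt91 (0.0317) and ppl (0.0308). In osteoblasts against OMP and against CMP alike, 8 of the 11 epidermal genes tested were not called, among them krt5 and epcam, whose means were highest in osteoblasts. Leukocyte markers summed to 30.0 to 54.0, 71.1 to 90.3 and 44.3 to 98.0 CPM in osteoblasts, OMP and CMP, endothelial markers to 3.44 to 5.56, 11.5 to 12.04 and 11.9 to 17.7 CPM, and muscle markers to 2.06 to 4.91, 5.10 to 6.29 and 5.35 to 5.96 CPM. The endothelial genes cdh5 and tie1 and the leukocyte gene mpeg1.1 were at 0 reads. Others of these lists were read. Endothelial egfl7 had 5 and 9 reads in osteoblasts, 23 and 58 in OMP and 23 and 89 in CMP. In the same order kdrl had 8 and 6, 17 and 10, and 2 and 1 reads. The leukocyte gene mpx had 0 and 0, 12 and 12, and 0 and 4 reads. No endothelial or leukocyte gene tested was called in any comparison.

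Of the 101 kcn symbols below the gene rule, 49 had 0 reads in all libraries, 30 had 1 to 9 reads in all and 22 had 10 or more. No inward rectifier of 25 symbols passed the rule, against 3 of 21 tandem-pore, 6 of 47 voltage-gated pore, 2 of 12 auxiliary and 1 of 8 calcium- or sodium-activated symbols. By the reads of the second-highest library, the genes just inside the rule were kcng2 (11 reads), kcnd3 (12) and kcnk3b (13). Just outside were kcnj13, whose reads are given above, and the inward rectifier gene kcnj2a, with 9 and 14 reads in osteoblasts, 0 and 2 in OMP and 3 and 2 in CMP. In all, 9 genes outside the rule had 10 or more reads in 1 library. Kcnj2a was the 1 gene of the 101 that passed the filter of the test, where osteoblasts differed from OMP by 3.84 (SE 1.25, edgeR adjusted p = 0.117) on the log2 scale, with no call.

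Potassium also crosses the membrane through pumps and cotransporters. Of 25 genes of sodium-potassium pumps and cation-chloride cotransporters, 14 were tested. In osteoblasts 2 were lower than in OMP and 3 lower than in CMP, beside 4.61% and 5.64% of all genes, and none was called higher, with median log2 fold changes of 0.19 and -0.43, beside -0.03 and -0.02 over all genes. The pump subunit gene atp1a3b stood at 0.785 ± 0.185 CPM in osteoblasts, 46.0 ± 4.93 CPM in OMP and 88.5 ± 49.6 CPM in CMP (SD, n = 2 each). It fell in osteoblasts against OMP (-5.79, SE 0.61, edgeR adjusted p = 5.73e-04) and CMP (-6.74, SE 0.61, edgeR adjusted p = 2.24e-04), and neither call was lost under any alternative. The summed level of the list was between 2222 and 3097 CPM in osteoblasts, between 1198 and 2022 CPM in OMP and between 2225 and 2460 CPM in CMP. Its most abundant genes were not called: the pump subunit gene atp1b1a had a log2 fold change of 0.999 (SE 0.335, edgeR adjusted p = 0.130) and atp1a1a.1 of 1.19 (SE 0.37, edgeR adjusted p = 0.105) in osteoblasts against OMP.

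Atp1a1b, another pump subunit gene, stood at 6.91 ± 5.14 CPM in osteoblasts, 85.4 ± 16.7 CPM in OMP and 33.8 ± 0.675 CPM in CMP, an order like that of kcnd1. It was lower in osteoblasts than in OMP (-3.59, SE 0.51, edgeR adjusted p = 0.00283) and than in CMP (-2.25, SE 0.50, edgeR adjusted p = 0.0207), the second call being lost without osteoblast replicate 1 (0.0697), CMP replicate 1 (0.0658) or CMP replicate 2 (0.0792). The sodium-potassium-chloride cotransporter gene slc12a2 was lower in osteoblasts than in CMP (53.9 ± 24.1 CPM against 182 ± 11.7 CPM, -1.76, SE 0.36, edgeR adjusted p = 0.0144). That call was lost without osteoblast replicate 2 (0.110), CMP replicate 1 (0.0536) or CMP replicate 2 (0.0850). In OMP against CMP edgeR called 0 of the 14 genes and DESeq2 0, with 2 at an unadjusted p under 0.05 and a median of -0.53 beside 0.01 over all genes.

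Calcineurin and NFAT genes, the pathway tied to fin length together with kcnk5b, gave 1 call. It was made in osteoblasts against CMP, where 5.64% of all genes were called lower, so 1 of 15 genes is near the share of all genes. Of 19 listed and 15 tested, nfatc4, an NFAT transcription factor gene, was lower in osteoblasts than in CMP (13.2 ± 0.250 CPM against 36.6 ± 8.88 CPM, log2 fold change -1.46, SE 0.37, edgeR adjusted p = 0.0376). The nfatc4 call was lost without osteoblast replicate 1 (0.148), osteoblast replicate 2 (0.188), OMP replicate 1 (0.0537), CMP replicate 1 (0.247) or CMP replicate 2 (0.0816), and with counts summed over transcripts (0.0702). In osteoblasts against OMP edgeR called 0 and DESeq2 0, with 2 at an unadjusted p under 0.05. In OMP against CMP edgeR called 0 and DESeq2 1, beside 403 DESeq2 calls over all genes, with 3 at an unadjusted p under 0.05. The medians were -0.01 in osteoblasts against OMP, -0.26 in osteoblasts against CMP and -0.23 in OMP against CMP.

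Of 30 voltage-gated calcium channel genes, 8 were tested and cacna1g, a low-threshold T-type pore gene, was called. Cacna1g was called lower in osteoblasts against OMP and CMP, where 4.61% and 5.64% of all genes were called lower. It stood at 4.60 ± 0.950 CPM in osteoblasts, 17.2 ± 5.43 CPM in OMP and 28.7 ± 1.28 CPM in CMP (SD, n = 2 each). It was lower in osteoblasts than in CMP (-2.62, SE 0.44, edgeR adjusted p = 0.00525), with no loss under any alternative, and than in OMP (-1.88, SE 0.44, edgeR adjusted p = 0.0338). The second call was lost without any library except OMP replicate 2 (adjusted p 0.0605 to 0.184) and with only the libraries of both groups (0.0770). Cacna1ab, which encodes a P/Q-type pore, had 15 and 12 reads in osteoblasts, 0 and 0 in OMP and 1 and 0 in CMP, and missed the threshold in osteoblasts against OMP (edgeR adjusted p = 0.0511) and CMP (edgeR adjusted p = 0.0734). The list's medians were -0.14 in osteoblasts against OMP and 0.07 in osteoblasts against CMP. In OMP against CMP edgeR and DESeq2 each called 0 of the 8 genes, with 0 at an unadjusted p under 0.05 and a median of -0.12.

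Of 19 connexin symbols listed, 10 were in the table and 3 were tested, of which cx43 was called. Of all genes, 2.72% were called higher in osteoblasts against OMP and 0.619% lower in OMP against CMP. Cx43, the gap junction gene of the short fin mutant, stood at 225 ± 65.1 CPM in osteoblasts, 92.1 ± 19.5 CPM in OMP and 418 ± 20.6 CPM in CMP (SD, n = 2 each). In osteoblasts it was higher than in OMP (log2 fold change 1.29, SE 0.32, edgeR adjusted p = 0.0400) and lower in OMP than in CMP (-2.18, SE 0.32, edgeR adjusted p = 0.0171), the opposite order to kcnd1 between these last groups. The first call was lost without osteoblast replicate 1 (0.217), OMP replicate 1 (0.0623), OMP replicate 2 (0.242), CMP replicate 1 (0.0731) or CMP replicate 2 (0.0769), and with only the libraries of both groups (0.0713). The second was lost without OMP replicate 1 (0.0516), OMP replicate 2 (0.0918), CMP replicate 1 (0.0748) or CMP replicate 2 (0.106), and both were lost with counts summed over transcripts (0.0701 and 0.0515). In osteoblasts against CMP edgeR called 0 of the 3 genes and DESeq2 0, with 1 at an unadjusted p under 0.05.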

How the data were processed

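The authors deposited raw counts per RefSeq transcript, with transcript lengths, for 75811 rows and 6 libraries. The same table also holds RPKM and TPM values made by the authors, which entered no result. HISAT2 2.2.1, featureCounts 2.0.3 and build GRCz11 are named in the submitters' processing notes. No source used here gives the strand setting. In RefSeq of GRCz12tu, used for names only, 11 of the 12 genes were matched by symbol, and 7 overlapped another gene. A coding gene was overlapped by 2: kcna4 overlapped fshb (0 reads) and kcnn4 overlapped si:dkey-79d12.4 (26 reads). Kcnd1, kcnd3, kcne4, kcnip3a, kcnn4 and kcnq5b overlapped long non-coding RNA genes whose symbols the deposited table does not hold. Whether reads of overlapping genes entered these counts was not tested. Reads shared between transcripts appear on each row, so the row with the highest total stood for a gene, and 2 transgene rows with empty cells were left out. Counts summed over transcripts therefore hold shared reads more than once. For kcnip3a they were 4.89 times the reads of the row kept. The test was edgeR 4.0.16 under R 4.3.3, with TMM scaling, filterByExpr, glmQLFit and glmQLFTest left at their defaults. A single model took all 6 libraries and no covariate besides group (3 residual degrees of freedom), and was tested two-sided with Benjamini-Hochberg adjustment over 13399 genes. The SE of a log2 fold change is its size over the root of the F statistic. CPM are TMM-scaled; CPM per kilobase use the deposited length. Alternatives were DESeq2 1.42.0, its size factors, no filter, fits of both groups alone, a replicate block, counts summed over transcripts, heat shock genes left out and each library left out. The bias-adjusted quasi-likelihood method was added after seeing the data. The genes, lists and alternatives were chosen with earlier results of these data known. Named were all potassium channel genes called, the 10 highest per kilobase, the fin size channels, sp7, sox9a, up to 4 called genes of each other list, and all members behind a count of 5 or fewer. Other genes, among them kcnk5a, elavl4 and cacna1ab, were named after their values were seen. The fit was also run on counts simulated from its own means and dispersions. Such a run cannot show that the model suits these libraries.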

Additional observations from a re-analysis of the deposited data

How the results depend on the processing

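Alternatives left kcnd1 lower in osteoblasts than in OMP, the 1 potassium channel call that held under all 14. In osteoblasts against OMP, 3 potassium channel genes were called, and 6 with no filter on low counts, 5 with the replicate block, 1 with counts summed over transcripts and 1 to 3 when each library was left out. In osteoblasts against CMP, 2 were called, and 4 with no filter, with only the libraries of both groups, with the replicate block or with the bias-adjusted method, 1 with summed counts and 0 to 2 leaving out a library. In OMP against CMP, 1 was called, and 2 with no filter, 3 with the replicate block and 0 to 1 leaving out a library. All genes called numbered 983 in osteoblasts against OMP (1553 with no filter, 1754 with the replicate block, 573 to 876 leaving out a library), 1280 in osteoblasts against CMP (2217 with the block, 734 to 1339 leaving out a library) and 189 in OMP against CMP (585 with no filter, 622 with the block, 403 with DESeq2, 58 with summed counts, 8 to 252 leaving out a library). With no filter, 23299 genes were tested rather than 13399. In osteoblasts against OMP, summed counts gave 804 calls over all genes. In osteoblasts against CMP, calls over all genes were 1857 with no filter and 1368 with only the libraries of both groups. There the bias-adjusted method gave 1424 and summed counts 1107. The replicate numbers are those of the titles. Differences between replicates 2 and 1 correlated over genes by 0.34 between CMP and OMP, 0.30 between CMP and osteoblasts and 0.38 between OMP and osteoblasts, but with 2 numbers this does not show that they pair the libraries.

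Uncalled fold changes that turned sign when a library was left out ranged, in osteoblasts against OMP, from -0.61 to 0.58 for kcnb2, -0.41 to 0.73 for kcne4, -0.64 to 0.98 for kcnk6, -0.75 to 1.0005 for kcnq5b (0.12 with summed counts), -0.18 to 0.50 for sox9a and -1.07 to 0.34 for msx2b. In osteoblasts against CMP they ranged from -0.79 to 0.88 for kcnk6 and -0.64 to 2.13 for kcnn4, and in OMP against CMP from -0.60 to 0.53 for kcnk6, -0.56 to 0.0277 for prrx1b and -1.04 to 0.52 for rgs5a. With 2 libraries a group and 27 to 127 reads in all on 7 of the 12 genes, depth limits what these genes can show.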

Other observations

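Levels of 5 of the 12 genes, kcna4, kcnb2, kcnip3a, kcnk6 and kcnn4, were higher in replicate 1 than in replicate 2 in all 3 groups, and 0 of the 12 were lower in replicate 1 in all 3. Over the 13399 genes tested, 24.1% were higher and 23.2% lower in replicate 1 in all 3 groups. Heat shock genes took 16.6%, 20.6% and 18.6% of reads in replicate 1 of osteoblasts, OMP and CMP, and 7.66%, 7.83% and 11.8% in replicate 2. The part of this in the channel genes was not tested.

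The symbol rule leaves out 31 other symbols whose product names a potassium channel or its modulator, apart from 23 genes of the tetramerisation domain family, which encode no pore. Of the 31, 3 had at least 10 reads in at least 2 libraries: kcmf1, the hyperpolarisation-activated channel gene hcn2b, and LOC100330283, annotated as like the Shaker subfamily. LOC100330283 had 5 and 0 reads in osteoblasts, 10 and 12 in OMP and 12 and 13 in CMP. Hcn2b had 0 and 7 reads in osteoblasts, 7 and 21 in OMP and 16 and 5 in CMP. LOC100004160, also annotated as like the Shaker subfamily, had 2 and 0 reads in osteoblasts, 1 and 0 in OMP and 20 and 9 in CMP. These genes were chosen after their values were seen.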
